A study of Mus musculus with 2 samples.

Results

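The tissue inhibitors of metalloproteinases Timp1, Timp2 and Timp3 and the metalloproteinases Mmp2, Mmp3, Mmp8, Mmp9, Mmp12, Mmp14 and Adamts1 are described here across the cell types of the neonatal mouse lung in room air and in hyperoxia. These 10 genes, of 27998 in the count matrices, were listed by name, and Timp3 was put first because its level in endothelial cells was higher in hyperoxia. That difference is therefore given as a description. The lungs came from C57BL/6 mice aged 2 weeks. In the room air group the mice breathed 21% O2, and in the hyperoxia group they were kept in 80% O2 between P0, the day they were born, and P14, an exposure used to model bronchopulmonary dysplasia (BPD) in mice. The cells of 8 mice were mixed into 1 droplet library per group, so that values of single mice cannot be separated, no test between the groups was possible, and a difference between the groups cannot be told apart from a difference between the libraries.

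Metalloproteinases are zinc-dependent enzymes that cut collagens, elastin and other proteins of the extracellular matrix, and the TIMPs bind and block their active sites. Timp3 differs from its relatives in that it stays bound to the matrix and also blocks ADAM and ADAMTS proteases and the binding of VEGF to its receptor Kdr. Alveolar septa form through remodelling of this matrix in the first weeks of mouse life, when fibroblasts, pericytes, alveolar epithelium and capillaries make many of these proteins. Neutrophils and macrophages carry metalloproteinases of their own.

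The room air library held 4234 barcodes with a median of 7306.5 unique molecular identifiers (UMIs), and the hyperoxia library held 13223 barcodes with a median of 6643. After filtering, 3680 and 10472 cells were left, with median UMIs of 8067 and 7232.5, and 17 barcodes occurred in both libraries. Cells were grouped by marker genes into endothelial-like (919 in room air and 2268 in hyperoxia), stromal-like (794 and 2444), epithelial-like (262 and 1007), myeloid-like (720 and 1390) and lymphocyte-like (743 and 2670) cells, and into cell types within these. No defining marker of these 5 lineages was at 0 in its own lineage, and the summed endothelial markers were 12318 counts per 1000000 UMIs (CPM) in the room air endothelial-like cells and 12864 CPM in those from hyperoxia. A level here is a gene's UMIs added up over all cells of a class and scaled to CPM by the total UMIs of the same cells. The range in parentheses after a level is its exact 95% Poisson interval, and that after a log2 ratio of hyperoxia over room air is an exact 95% conditional interval. Both cover counting error only and not the variation between cells, mice or libraries. The words higher and lower compare these libraries and not the exposures. Because UMIs were counted at the 3' end, no level was divided by gene length, and levels are compared between cell types for 1 gene and not between genes.

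The gene bodies are given in GRCm38. Timp3 (ENSMUSG00000020044) lies at chr10:86300372-86349506 on the plus strand, and the minus-strand gene Syn3 overlaps it. Timp1 lies at chrX:20870166-20874735 on the plus strand and is overlapped by Syn1 on the minus strand, and Timp2 lies at chr11:118301069-118355740 on the minus strand and overlaps Cep295nl. The collagenase gene Mmp8 (chr9:7558456-7568485), the stromelysin gene Mmp3 (chr9:7445822-7455975) and the macrophage elastase gene Mmp12 (chr9:7344381-7369499) lie near each other on chromosome 9, all on the plus strand, and Mmp1b on the minus strand overlaps Mmp12. The gelatinase genes are Mmp2 at chr8:92827291-92853420 and Mmp9 at chr2:164940780-164955850. Mmp14 lies at chr14:54431612-54445364 and Adamts1 at chr16:85793827-85803113, the latter on the minus strand. Reads of an overlapping gene may enter the counts of Timp1, Timp2, Timp3 or Mmp12 where the counting could not separate them.

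Promoter sequence is shown for Timp3, for Timp1 as the inhibitor with a higher level in hyperoxia in fibroblasts, and for Mmp3 as a protease found chiefly in fibroblasts. The sequences end just before the annotated start and come from the RefSeq promoter table for GRCm38.p6, which held 8 of the 10 genes. The stretch of Timp3 held neither motif searched. In the others capitals mark a GC box (GGGCGG on either strand) or an AP-1 motif (TGANTCA, read on either strand), and the motifs do not overlap here. The Timp3 stretch is chr10:86300162-86300371, that of Timp1 is chrX:20869916-20870165 and that of Mmp3 is chr9:7445572-7445821, all on the plus strand.
Timp3: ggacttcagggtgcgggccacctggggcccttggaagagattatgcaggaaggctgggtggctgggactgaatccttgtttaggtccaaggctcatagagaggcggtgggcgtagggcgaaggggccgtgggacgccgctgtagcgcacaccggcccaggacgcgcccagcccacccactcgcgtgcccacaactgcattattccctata
Timp1: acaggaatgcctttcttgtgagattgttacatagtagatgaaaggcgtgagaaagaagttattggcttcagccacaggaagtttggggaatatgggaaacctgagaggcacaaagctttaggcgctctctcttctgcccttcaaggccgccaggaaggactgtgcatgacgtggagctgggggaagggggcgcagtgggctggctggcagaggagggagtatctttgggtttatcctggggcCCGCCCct
Mmp3: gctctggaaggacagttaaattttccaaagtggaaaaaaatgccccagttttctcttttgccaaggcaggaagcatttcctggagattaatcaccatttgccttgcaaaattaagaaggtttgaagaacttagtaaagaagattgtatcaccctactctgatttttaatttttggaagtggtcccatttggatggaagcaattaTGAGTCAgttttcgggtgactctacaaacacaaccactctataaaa
In the 250 bases before the RefSeq start, a GC box was found in 5 of the 8 genes (Timp1, Timp2, Timp3, Mmp14 and Adamts1) and an AP-1 motif in 2 (Mmp3 and Mmp12). Mmp12 had 2 windows. The AP-1 motif lay in the one starting at chr9:7347124 and not in the one starting at chr9:7344147. Over 32851 promoter windows in the table, 32.7% held the GC box and 6.75% the AP-1 motif, counted per window and not per gene. The GC box of Timp3 lies 15 bases before its RefSeq start, outside the stretch shown. A match is a match of letters and not a measured site.

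In endothelial-like cells, Timp3 had 3536 UMIs in room air and 47869 in hyperoxia, a level of 445.8 CPM (431.3 to 460.8) against 2467 CPM (2445 to 2489). The level was 5.53 times higher in the hyperoxia library (5.35 to 5.73), a log2 ratio of 2.47 (2.42 to 2.52). This is the difference by which the gene was chosen. Of the 8396 genes tested in endothelial-like cells, those with a mean of at least 10 CPM, 1.94% were at least 2-fold higher in hyperoxia and 3% at least 2-fold lower, and of the 5 genes described here that reached this level Timp3 alone was past 2-fold. The median room air cell held 1 Timp3 UMI and the median hyperoxia cell 13. In room air the 10% of cells richest in Timp3 held 53.6% of the Timp3 UMIs, against 35.5% in hyperoxia, so that Timp3 was spread over more cells in the latter. The share of endothelial-like cells with a Timp3 UMI was 64.4% in room air and 96.4% in hyperoxia. When each cell was thinned to 2000 UMIs, which left out 56 and 223 shallower cells, the shares were 38.6% (35.3 to 41.9, exact binomial) and 88.1% (86.6 to 89.5). B cell-like cells, which should lack the gene, had thinned shares of 3.44% and 8.31%, with median UMIs of 4496 and 2917 against 7798 and 8564 in endothelial-like cells.

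The 5 endothelial types with enough cells in both libraries all had a higher Timp3 level in hyperoxia. Aerocytes (aCap), the large thin capillary cells of the gas exchange surface, had the highest endothelial level in both libraries, 1267 CPM (1206 to 1330) in the room air library against 3934 CPM (3891 to 3977) in the hyperoxia library, a log2 ratio of 1.63 (1.56 to 1.71). General capillary (gCap) cells, which serve as capillary progenitors, had 229.1 CPM (215.5 to 243.3) and 1541 CPM (1511 to 1571), and their log2 ratio of 2.75 (2.66 to 2.84) was the largest of the 5. The thinned share of cells with a Timp3 UMI was 27.0% and 83.8% in gCap-like cells and 79.3% and 98.7% in aCap-like cells. Arterial cells had 394.3 CPM and 1403 CPM, with a log2 ratio of 1.83 (1.66 to 2.00). In venous cells Timp3 was at 501.5 CPM and 1205 CPM, a log2 ratio of 1.26 (1.04 to 1.49), and in dividing endothelial cells at 219.3 CPM and 820 CPM, a log2 ratio of 1.90 (1.64 to 2.17). The gap between the most and the least Timp3-rich capillary type was thus narrower in hyperoxia on the log scale, since the interval of the gCap ratio lay above that of the aCap ratio.

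The capillary cells of the 2 libraries lay mostly in different clusters, which were built without Timp3 or any other gene listed here. One gCap cluster held 740 hyperoxia cells at 1559 CPM of Timp3. The other held 568 room air cells at 216 CPM and 23 hyperoxia cells at 719 CPM. An aCap cluster shared by both libraries had 791 CPM in 34 room air cells and 2831 CPM in 220 hyperoxia cells. All 152 room air aCap-like cells together had 1267 CPM, so this cluster lay below their level. A further 2 aCap clusters of hyperoxia cells had 3553 and 4960 CPM. Within shared clusters the hyperoxia level was thus also the higher. Cells of the lymphatic endothelium were named in hyperoxia (35 cells) and had 750 CPM.

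aCap-like cells made up more of the endothelial-like cells in hyperoxia (1105 of 2268) than in room air (152 of 919). With the hyperoxia levels of each type and the room air mix of types, endothelial Timp3 would be 1848 CPM, and with room air levels and the hyperoxia mix 712 CPM, against 431 and 2497 CPM over the same 5 types as measured. The summed level of 6 stromal genes in endothelial-like cells was 264 CPM in the room air library against 155 CPM in the hyperoxia library. The summed epithelial markers in these cells were 298 and 446 CPM, and their part in the Timp3 result was not tested. In the 340 room air and 764 hyperoxia endothelial-like cells with no UMI of the 6 stromal genes, the Timp3 log2 ratio was 2.63.

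**Figure D1:**
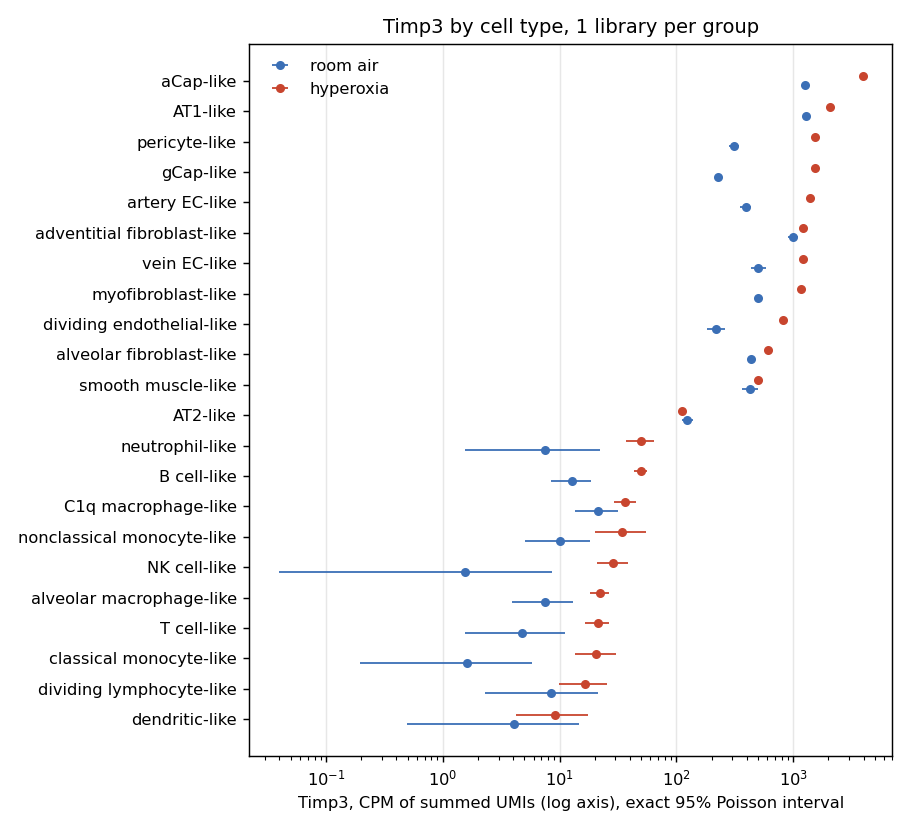
Timp3 level by cell type, in CPM of summed UMIs on a log axis, with exact 95% Poisson intervals; blue points are the room air library and red points the hyperoxia library. All endothelial types and pericytes sit further right in hyperoxia, while AT2-like cells (124 and 111.4 CPM) do not.

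**Figure D2:**
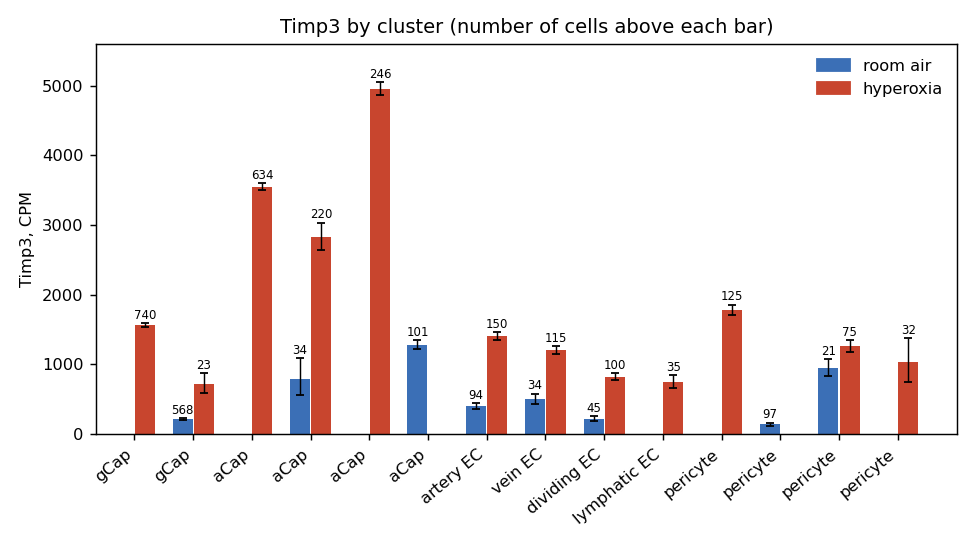
Timp3 level in CPM in each endothelial and pericyte cluster that held at least 20 cells of a library; bars are levels, whiskers exact 95% Poisson intervals and numbers above the bars the cells. In clusters shared by both libraries the red hyperoxia bar is the taller, as in the shared aCap cluster (791 and 2831 CPM).

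Among stromal cells, the difference in Timp3 was largest in pericytes, the contractile cells that wrap capillaries. Pericyte-like cells had 312.4 CPM (282.5 to 344.6) in the room air library against 1551 CPM (1498 to 1605) in the hyperoxia library, a log2 ratio of 2.31 (2.16 to 2.47), and their thinned shares with a UMI were 30% and 78.6%. The pericyte marker sum was lower in hyperoxia (17138 and 10429 CPM), as was the epithelial marker sum in these cells (1839 and 624 CPM), and the part of either in the result was not tested. The endothelial marker sum in them stayed near 1 level, 161 and 140 CPM. A pericyte cluster shared by both libraries had 947 CPM in 21 room air cells and 1262 CPM in 75 hyperoxia cells, so the difference there was smaller. The other pericyte clusters held 1 library each, with 138 CPM in 97 room air cells and 1781 and 1031 CPM in 125 and 32 hyperoxia cells. How much of the pericyte difference is a different mix of pericytes cannot be told apart from a different level in each.

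In myofibroblasts, which lay down elastin at the septal tips, Timp3 was at 503.8 CPM in the room air library against 1159 CPM in the hyperoxia library, a log2 ratio of 1.2 (1.14 to 1.26). Alveolar fibroblasts, which lie beside the epithelium and store lipid, had 434.5 and 610.1 CPM, a log2 ratio of 0.49 (0.41 to 0.57). The adventitial fibroblasts around large vessels and airways had 994.6 and 1206 CPM, a log2 ratio of 0.28 (0.13 to 0.43). In smooth muscle-like cells Timp3 was at 429 and 503.5 CPM, and the interval of the log2 ratio of 0.23 (−0.01 to 0.48) held 0. Over all stromal-like cells the levels were 493.2 and 916 CPM.

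The gas-exchange epithelium (AT1) was the other Timp3-rich type. AT1-like cells had 1300 CPM (1216 to 1387) in room air, not different from aCap-like cells beyond counting error, and 2068 CPM (1992 to 2146) in the hyperoxia library, with a log2 ratio of 0.67 (0.56 to 0.78). Surfactant-producing AT2-like cells had 124 and 111.4 CPM, with a log2 ratio of −0.15 (−0.33 to 0.03). In room air the order after AT1-like and aCap-like cells ran from adventitial fibroblasts to myofibroblasts, veins, alveolar fibroblasts, smooth muscle and arteries, the last 4 of these each not separable from the neighbour above, and gCap-like and dividing endothelial cells came below pericytes. In hyperoxia aCap-like cells came first and AT1-like cells next, followed by pericytes and gCap-like cells, which did not differ beyond counting error. Blood cells had little Timp3. Myeloid-like cells had 8.90 and 26.9 CPM and lymphocyte-like cells 8.51 and 34.6 CPM. Their thinned shares with a UMI, 2.03% and 6.82% in myeloid-like cells, were no higher than those in B cell-like cells and are read as background.

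Timp1, which is induced in wounded tissue and mainly secreted, was found chiefly in stromal cells. Stromal-like cells had 367 Timp1 UMIs in room air and 3547 in hyperoxia, 32.9 CPM (29.6 to 36.5) against 121.8 CPM (117.8 to 125.9), a log2 ratio of 1.89 (1.73 to 2.05). Of 7 genes of the 10 with at least 10 CPM in stromal-like cells, Timp1 and Mmp2 were at least 2-fold higher in hyperoxia and none was 2-fold lower. With hyperoxia levels and the room air mix of 5 stromal types, Mmp2 would be 820 CPM. That is less than 2-fold above the 436 CPM of room air over the same types. In the same way Timp1 would be 98.4 CPM against 31.4 CPM. Timp3 would be 1029 CPM against 479.5 CPM, which is more than 2-fold, where it was measured at 906.4 CPM in hyperoxia. Over the 8783 genes tested in stromal-like cells 1.63% were 2-fold higher and 1.23% 2-fold lower. The median log2 ratio of the 7 was 0.87, against 0.00 over all genes.

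Adventitial fibroblasts had the highest Timp1 level, 212.2 CPM (171.9 to 259.1) in 24 room air cells and 673.7 CPM (638.7 to 710.3) in 157 hyperoxia cells. A single hyperoxia cell held 523 of their 1379 UMIs. Without the cell richest in Timp1 in each library the levels were 187.5 and 422.7 CPM, a log2 ratio of 1.17. The share of these cells with a Timp1 UMI did not follow the level, at 30.4% and 32.7% after thinning. In alveolar fibroblasts Timp1 was at 27.0 and 98.2 CPM, and 45 of the 82 room air UMIs lay in 1 cell, so that the log2 ratio was 1.86 with the richest cells and 2.82 without them. Myofibroblasts had 23.6 CPM (19.8 to 28.0) and 73.7 CPM (68.4 to 79.3), with thinned shares of 3.92% and 12.6%, where those of B cell-like cells were 0% and 0.249%. In pericyte-like cells the levels were 10.2 and 30.3 CPM, from 13 and 63 UMIs. Endothelial-like cells had less, 4.41 CPM (3.07 to 6.14) and 14.4 CPM (12.8 to 16.2), and B cell-like cells 0.457 and 1.53 CPM. Smooth muscle-like cells went the other way on few counts, 15 and 24 UMIs or 38.5 and 13.5 CPM, and this direction turned when cells were named singly by their markers (log2 ratio 1.79).

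Timp2, an inhibitor that also helps Mmp14 to activate proMmp2, was found in stromal cells, endothelium, AT1 cells, neutrophils and macrophages, and differed little. Stromal-like cells had 586 CPM in the room air library against 679 CPM in the hyperoxia library, a log2 ratio of 0.21 (0.17 to 0.25). Adventitial fibroblasts had the highest level, 1262 and 1351 CPM, a difference within counting error. In endothelial-like cells Timp2 was at 228.2 CPM (217.8 to 239) and 306 CPM (298.3 to 313.9), a log2 ratio of 0.42 (0.35 to 0.50). Within types the difference was smaller in capillaries, 158.3 and 176.3 CPM in gCap-like cells and 441.6 and 401.9 CPM in aCap-like cells, the latter in the opposite direction. Arteries had 221.3 and 419.3 CPM, a log2 ratio of 0.92 (0.68 to 1.17), and dividing endothelial cells 114.6 and 205.0 CPM, a log2 ratio of 0.84 (0.45 to 1.25). With room air levels and the hyperoxia mix of types, endothelial Timp2 would be 294 CPM, and with hyperoxia levels and the room air mix 251 CPM, against 215 and 308 CPM over the same 5 types as measured. AT1-like cells had 636 and 523.6 CPM, but with a stricter cell filter the log2 ratio was 0.00106. Neutrophil-like cells had 209.2 and 274.6 CPM (log2 ratio 0.39, 0.04 to 0.76), and C1q macrophage-like cells, a name used here for interstitial macrophages rich in C1q genes, had 196.9 and 246.3 CPM.

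Mmp2, gelatinase A, cuts denatured collagen and the type IV collagen of basement membranes. Stromal-like cells held 92.5% of its UMIs in room air and 95.3% in hyperoxia, and their level was 455.7 CPM (443.2 to 468.4) against 967.1 CPM (955.9 to 978.5), a log2 ratio of 1.09 (1.04 to 1.13). Alveolar fibroblasts had the highest level in both libraries, 758.2 and 1385 CPM, with a log2 ratio of 0.87 (0.81 to 0.93). Myofibroblasts had 370.1 and 674.5 CPM, with the same log2 ratio of 0.87. In adventitial fibroblasts the levels were 541.5 and 782.7 CPM. Pericyte-like cells again had the largest ratio of the stromal types, with 54.0 CPM (42.0 to 68.4) from 69 UMIs and 375.1 CPM (349.2 to 402.4) from 779 UMIs, a log2 ratio of 2.80 (2.44 to 3.17). In the pericyte cluster shared by both libraries Mmp2 was at 74.1 and 291 CPM, so the direction also held within it. The 6 stromal genes summed to 4607 and 5312 CPM in pericyte-like cells, and their part in the Mmp2 result was not tested.

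In pericyte-like cells 4 of 6 genes tested (Timp1, Timp3, Mmp2 and Adamts1) were at least 2-fold higher in hyperoxia and none 2-fold lower, where 3.4% of all 8584 genes tested were 2-fold higher and 3.34% lower. Their median log2 ratio was 1.32, and that of all genes −0.03. In alveolar fibroblasts Timp1 and Mmp3 were 2-fold higher, as were 2.47% of all genes, but Mmp3 reached 10 CPM there through the hyperoxia library alone, so that its call was fixed by the filter. In myofibroblasts 2 of 6 (Timp1 and Timp3) were 2-fold higher, where 1.64% of all genes were.

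Among endothelial types, venous cells had the most Mmp2, 224.7 and 268.8 CPM, within counting error of each other. Arterial cells had 17.7 CPM (9.9 to 29.1) and 81.3 CPM (67.3 to 97.3). The stromal marker sum in arterial cells moved the same way, 353 and 1021 CPM, and its part in the result was not tested. The capillaries were near background, with 7.55 and 11.2 CPM in gCap-like cells and 4.57 and 15.1 CPM in B cell-like cells. AT1-like cells had 5.78 and 44.0 CPM beside 94 and 638 CPM of the 6 stromal genes, and the share of AT1-like cells with an Mmp2 UMI was 6.06% and 6.80%. In dividing endothelial cells, 24 and 17 UMIs gave 39.3 and 14.5 CPM, and this direction turned with a stricter cell filter, without doublet removal and with single-cell naming (log2 ratios 0.11, 0.91 and 3.09).

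Mmp3, or stromelysin 1, which cuts proteoglycans and activates other proenzymes, was confined in the main to fibroblasts, with 99.5% of its UMIs in stromal-like cells in room air and 91.8% in hyperoxia. In adventitial fibroblasts it had 178 UMIs in room air and 451 in hyperoxia, 393.4 CPM (337.7 to 455.6) against 220.3 CPM (200.5 to 241.7), a log2 ratio of −0.84. One cell in each library held 56 and 52 of these UMIs, and without them the log2 ratio was −0.54. The share of adventitial fibroblasts with an Mmp3 UMI was 33.3% and 28.7%. Alveolar fibroblasts differed in the opposite direction, with 6 and 255 UMIs, 1.97 CPM against 20.5 CPM. Of the 6 room air UMIs 5 lay in 1 cell and of the hyperoxia UMIs 43, and 1.10% and 5.50% of the cells had any. Without the richest cell of each library the log2 ratio was 5.69 in place of 3.37, but almost no room air UMI was left, so its size is not reliable. After thinning 0.556% and 2.18% of alveolar fibroblasts had an Mmp3 UMI, and 0.265% and 0.0831% of B cell-like cells.

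Mmp14, a membrane-bound protease that activates proMmp2, differed little in structural cells. Its level in stromal-like cells was 279.4 CPM (269.7 to 289.4) in the room air library against 288.7 CPM (282.6 to 295) in the hyperoxia library, and in endothelial-like cells 122.1 CPM (114.5 to 130) and 117.7 CPM (112.9 to 122.6). Both log2 ratios, 0.05 (−0.01 to 0.11) and −0.05 (−0.16 to 0.06), had intervals that held 0. Myofibroblasts (340.6 and 355.5 CPM) and adventitial fibroblasts (349.2 and 367.9 CPM) had the highest levels. Pericyte-like cells were again the stromal type with the largest ratio, 194.2 and 286.5 CPM, a log2 ratio of 0.56 (0.35 to 0.78). Among myeloid types it was found mainly in C1q macrophage-like cells, with 46.8 CPM (35.1 to 61.2) and 82.0 CPM (71.1 to 93.9).

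**Figure D3:**
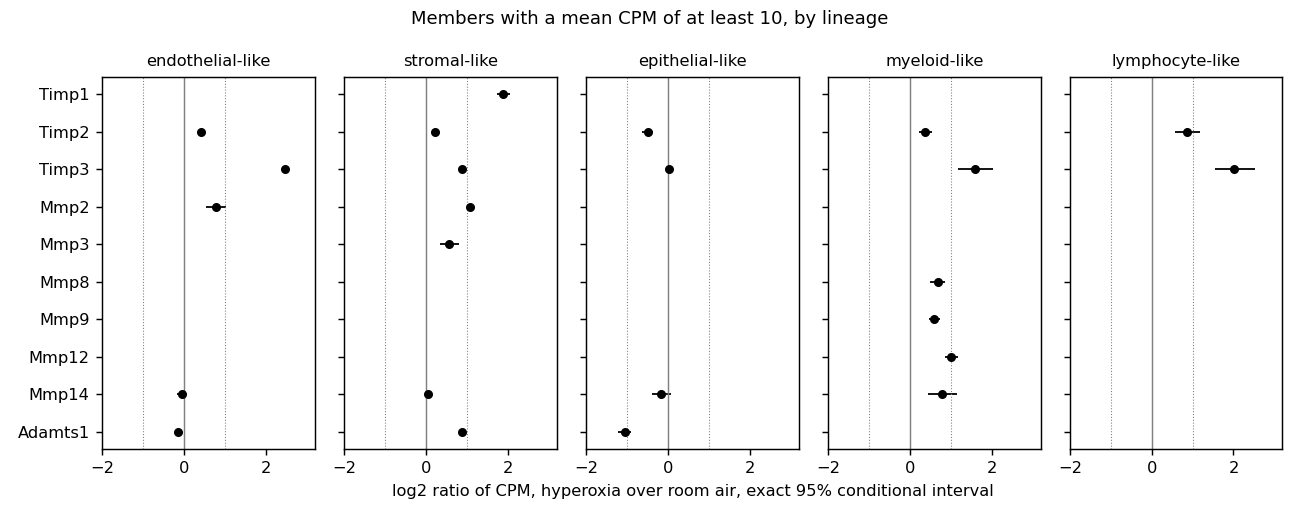
Log2 ratio of CPM, hyperoxia over room air, for each gene with a mean of at least 10 CPM in a lineage; bars are exact 95% conditional intervals and dotted lines mark a 2-fold difference. Timp3 stands at 2.47 in endothelial-like cells and at 0.03 in epithelial-like cells, Timp1 at 1.89 in stromal-like cells, and Adamts1 at −1.06 in epithelial-like cells and 0.87 in stromal-like cells. The epithelial-like values pool unlike types, with Timp3 at 0.67 in AT1-like and −0.15 in AT2-like cells. They include club-like cells, which held 1848669 of 5047910 UMIs in room air and 147890 of 13446645 in hyperoxia.

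Adamts1, a secreted protease that cuts aggrecan and versican, was found in endothelium, fibroblasts, smooth muscle and AT2 cells. In stromal-like cells it had 341.1 CPM (330.4 to 352.2) in the room air library against 624.8 CPM (615.7 to 633.9) in the hyperoxia library, a log2 ratio of 0.87 (0.82 to 0.92). Smooth muscle-like cells had the highest level in hyperoxia, 1191 CPM against 673 CPM in room air. In pericyte-like cells the levels were 260.7 and 547.5 CPM, a log2 ratio of 1.07 (0.89 to 1.25), in myofibroblasts 253.1 and 428.4 CPM, and in alveolar fibroblasts 535.5 and 791.1 CPM. Every named stromal type was thus higher in the hyperoxia library. A list of 14 genes that respond to tissue dissociation summed to 8468 and 12411 CPM in stromal-like cells, and its part in this result was not tested.

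In endothelial-like cells as a whole Adamts1 was slightly lower in hyperoxia, 566.2 CPM (549.8 to 583.1) against 508.7 CPM (498.7 to 518.8). Within types it was not lower: gCap-like cells had 641.5 and 755.4 CPM (log2 ratio 0.24, 0.17 to 0.30), aCap-like cells 154.8 and 191.6 CPM (0.31, 0.09 to 0.53), arteries 929.7 and 997.1 CPM and veins 783.7 and 779.3 CPM, the last 2 within counting error. The aCap-like cells, which had the least, were more frequent in the hyperoxia library. With hyperoxia levels and the room air mix of types endothelial Adamts1 would be 664 CPM, above the 574 CPM of room air over the same types. In the epithelium the direction was lower at each level: 116.7 and 56.0 CPM in epithelial-like cells, 199 CPM (181.9 to 217.3) and 60.8 CPM (56.5 to 65.4) in AT2-like cells, and 56.4 and 16.1 CPM in AT1-like cells, the last from 39 and 22 UMIs. Of AT2-like cells 26.4% and 8.90% had an Adamts1 UMI after thinning, and of B cell-like cells 1.59% and 3.16%. The AT2-like cells of the 2 libraries lay mostly in different clusters, and in the cluster they shared Adamts1 was at 202 CPM in 151 room air cells and 87.2 CPM in 49 hyperoxia cells. The dissociation genes summed to 4302 and 2132 CPM over epithelial-like cells, with 10 of 14 at least 2-fold lower, but to 2050 and 1954 CPM in AT2-like cells and 3342 and 3652 CPM in AT1-like cells. All epithelial-like values also include club-like cells, which held 1848669 of 5047910 UMIs in room air and 147890 of 13446645 in hyperoxia. With hyperoxia levels and the room air mix of the 3 epithelial types, Adamts1 would be 44.8 CPM, and with room air levels and the hyperoxia mix 182.7 CPM. These values rest in part on the club-like cells, which held 51 and 5 Adamts1 UMIs and differed in depth. The part of the club-like cells alone was not tested. Of the 4 genes tested in epithelial-like cells Adamts1 was 2-fold lower and none 2-fold higher, where 5.35% of all genes were 2-fold lower and 1.2% higher.

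Mmp8 and Mmp9, which neutrophils store in granules as collagenase 2 and gelatinase B, lay in myeloid-like cells, with 93.7% and 94.9% of their UMIs in room air and 94.7% and 96.4% in hyperoxia. Neutrophil-like cells had 1487 CPM of Mmp9 (1369 to 1612) in the room air library against 1578 CPM (1504 to 1654), a difference within counting error. Over all myeloid-like cells Mmp9 was at 95.4 and 144.9 CPM, beside 105 neutrophil-like cells of 720 and 457 of 1390. With hyperoxia levels and the room air mix of 6 myeloid types, Mmp9 would be 108.4 CPM, and with room air levels and the hyperoxia mix 137.9 CPM. Over the same types it was measured at 101.2 and 146.5 CPM. The part of the neutrophil number alone was not tested. Mmp8 was at 504 CPM (436.6 to 579) and 631.9 CPM (585.5 to 680.9) in neutrophil-like cells, a direction that turned when more doublets were removed (log2 ratio −0.19). A cluster of 20 hyperoxia neutrophils had 3140 CPM of Mmp8, and the cluster shared by both libraries 289 and 470 CPM. Classical monocyte-like cells carried Mmp8 without Mmp9, with 76.9 CPM (62.3 to 93.9) and 182.5 CPM (159.7 to 207.6) of Mmp8, a log2 ratio of 1.25 (0.90 to 1.61), and 0 and 1 UMIs of Mmp9. Of these monocytes 13.8% and 25.5% had an Mmp8 UMI after thinning, and of B cell-like cells 0% and 0.166%. Their summed neutrophil markers were 1181 and 1275 CPM. In C1q macrophage-like cells Mmp8 (0.883 and 9.15 CPM) and Mmp9 (2.65 and 13.5 CPM) moved with the summed neutrophil markers (68 and 1001 CPM), and the part of these in the result was not tested.

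Mmp12, the macrophage elastase, lay in macrophages. C1q macrophage-like cells had 286.1 CPM (255.8 to 319) in the room air library against 361.6 CPM (338.5 to 385.9) in the hyperoxia library, a log2 ratio of 0.34 that turned to −0.35 when more doublets were removed and to −0.10 at a finer clustering. They fell into 2 clusters, 1 with 68.7 and 125 CPM and 1 with 505 and 620 CPM. Alveolar macrophage-like cells had 63.9 CPM (52.1 to 77.5) and 128.7 CPM (119.5 to 138.4), a ratio of 2.01, where the median log2 ratio over all genes was −0.20. In room air 67 of their 102 UMIs lay in 1 cell, and without the richest cell of each library the levels were 22.4 and 119.0 CPM, a log2 ratio of 2.41. The share of alveolar macrophage-like cells with an Mmp12 UMI was 2.54% and 13.8% after thinning, and that of B cell-like cells 0% and 0.249%. The alveolar macrophages of the 2 libraries lay in different clusters. In myeloid-like cells as a whole Mmp12 was at least 2-fold higher (68.1 and 137.6 CPM) and none of the genes tested was 2-fold lower, with 1.36% of all genes higher and 2.55% lower. With hyperoxia levels and the room air mix of 6 myeloid types, Mmp12 would be 104.9 CPM. That is less than 2-fold above the 71.8 CPM of room air over the same types. Timp3 passed the filter in myeloid-like cells through the hyperoxia library alone and is not counted.

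**Figure D4:**
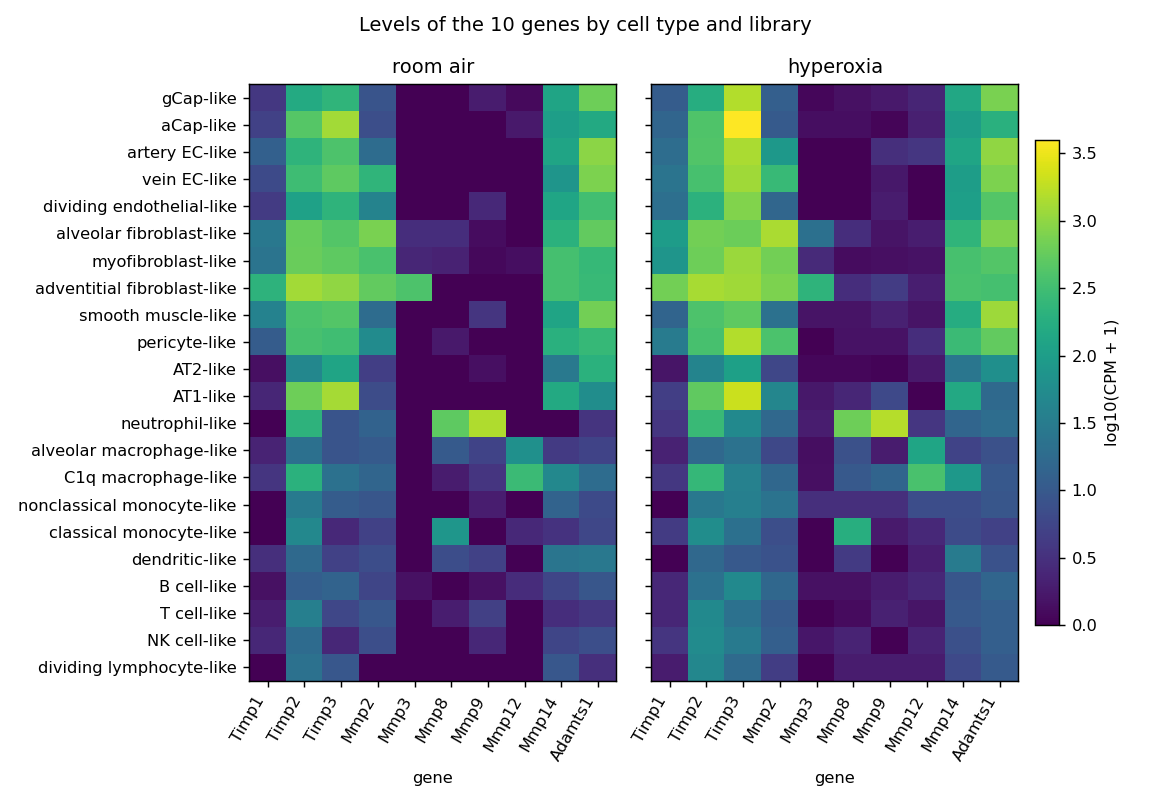
Level of each of the 10 genes by cell type, as log10(CPM + 1), in room air (left) and hyperoxia (right). Timp2, Timp3, Mmp14 and Adamts1 span the endothelial, stromal and epithelial rows and Timp1 and Mmp2 are strongest in the fibroblast rows, whereas Mmp8, Mmp9 and Mmp12 mark neutrophils, classical monocytes and macrophages, and Mmp3 marks adventitial fibroblasts (393.4 and 220.3 CPM).

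The make-up of the Timp3 pool differed between the libraries. Endothelial-like cells held 32.1% of all Timp3 UMIs in room air and 58.8% in hyperoxia, and stromal-like cells 50% and 32.8%. For Adamts1 the endothelial share was 48.3% and 33.3% and the stromal share 40.9% and 61.4%. The other genes kept their main lineage. Timp1 UMIs lay to 84.2% and 90% in stromal-like cells, those of Timp2 to 66.2% and 68.1%, and those of Mmp14 to 68.5% and 71.3%. These shares rest on the numbers of cells captured as well as on the level in each.

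**Figure D5:**
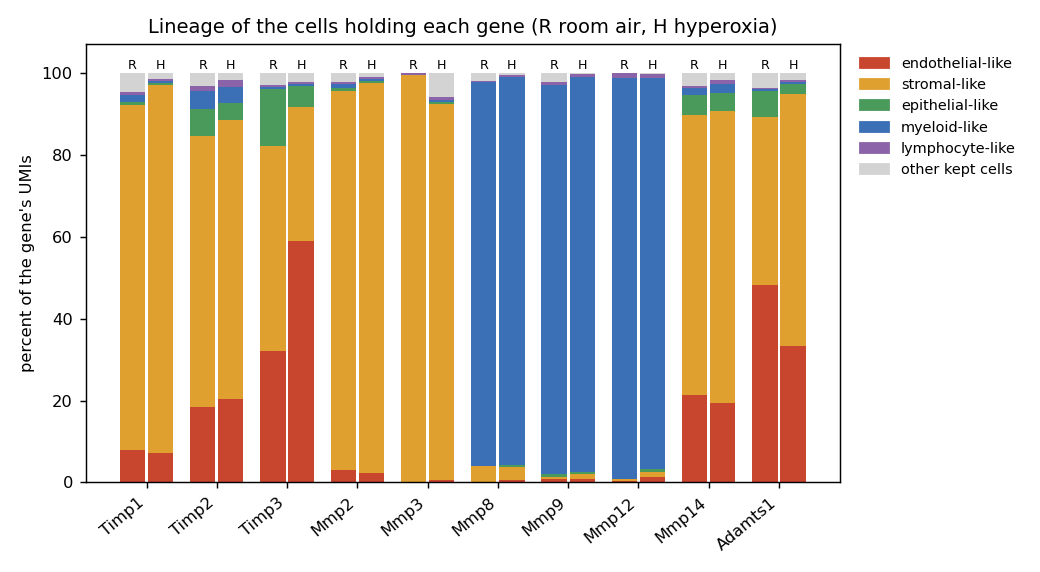
Percent of each gene's UMIs held by each lineage in room air (R) and hyperoxia (H), with kept cells outside the 5 lineages in grey. Timp3 is the gene whose largest holder differs between the libraries in favour of endothelial-like cells (32.1% and 58.8%), and Adamts1 the one in favour of stromal-like cells (40.9% and 61.4%).

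Other genes of the pathway were taken from lists of inhibitors, proteases and Timp3-binding proteins. Of 3 other inhibitors (Timp4, Reck and A2m) all 3 were tested in stromal-like cells and none was 2-fold different; Reck, a membrane-anchored inhibitor, had 64.0 and 44.5 CPM. Of 17 other matrix metalloproteinases 2 were tested in endothelial-like cells, where the membrane type Mmp16 had 9.20 and 18.7 CPM. Mmp16 passed the filter through the hyperoxia library alone, so the filter favoured its difference. In stromal-like cells 3 were tested, where Mmp19 had 11.8 and 25.6 CPM. Of all genes tested, 1.94% in endothelial-like and 1.63% in stromal-like cells were 2-fold higher. In epithelial-like cells Mmp11 (29.5 and 12.1 CPM) and Mmp23 (39.6 and 8.33 CPM) were lower, where 5.35% of all genes were 2-fold lower. Of 18 other ADAMTS proteases 10 were tested in stromal-like cells and none was 2-fold different, and their median log2 ratio was 0.05. In epithelial-like cells Adamts5 had 24.6 and 0.818 CPM, from 124 and 11 UMIs. Mmp23 and Adamts5 passed the filter in epithelial-like cells through the room air library alone, so the filter favoured their differences. Of 9 ADAM sheddases 6 were tested in endothelial-like cells, of which Adam12 (20.2 and 41.0 CPM) was 2-fold higher, as were 1.94% of all genes tested there. In myeloid-like cells 6 were tested, of which Adam8 (39.2 and 80.5 CPM) was 2-fold higher, as were 1.36% of all genes. Among proteins that bind Timp3 or take it up, the VEGF receptor Kdr was at 894 and 1217 CPM in endothelial-like cells, the TNF convertase Adam17 at 63.9 and 65.8 CPM and the sheddase Adam10 at 144 and 160 CPM there. The endocytic receptor Lrp1 had 342 and 478 CPM in stromal-like cells and the matrix protein Efemp1 9.95 and 25.3 CPM. Efemp1 was thus 2.54 times higher there (2.08 to 3.13), but it passed the filter through the hyperoxia library alone, so the filter favoured its difference. None of the 4 tested in endothelial-like cells was 2-fold different.

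The patterns of the genes over 23 cell types in both libraries (46 points, which share libraries and depth) were compared with those of 8559 genes by Pearson's r of log2(CPM + 1), as a description. The genes most like Timp3 were Cttn (r = 0.946), Rbfox2 (0.939), Ppic (0.937), Serpinh1 (0.935) and Nckap1 (0.932). Timp1 was most like Nnmt (0.884), Zfp9 (0.882) and Boc (0.881), and Timp2 most like Smo (0.865), Pofut2 (0.861) and Sparc (0.857). The nearest to Mmp2 were Gria3 (0.905), Mgp (0.896) and Mfap5 (0.890), to Mmp3 Apod (0.907), Scara5 (0.901) and Lsamp (0.895), to Mmp14 Rhbdf1 (0.914), Spats2l (0.911) and Mprip (0.907), and to Adamts1 Antxr1 (0.933), Msrb3 (0.93) and Tgfb1i1 (0.93). Mmp8 was most like S100a8 (0.916), Stfa3 (0.887) and Slfn4 (0.874), Mmp9 like Gm5416 (0.943), Ly6g (0.920) and Gm5483 (0.916), and Mmp12 like Ms4a7 (0.870), Mrc1 (0.861) and Fcna (0.823). Among the 10 genes themselves r was highest for Timp3 and Mmp14 (0.862), Mmp14 and Adamts1 (0.852) and Timp3 and Adamts1 (0.837), and lowest for Mmp8 and Mmp14 (−0.463).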

How the data were processed

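Each library was made from the pooled lungs of 8 mice with a droplet kit for the 3' ends of transcripts. The authors deposited UMI counts per gene and barcode, aligned to mm10 and made with Cell Ranger 2.1.1 per the submitters' processing notes, while the labels' protocol names another version, and these counts were used as deposited. Barcodes under 500 genes or over 20% mitochondrial UMIs were removed, and 129 and 1239 likely doublets (0.8% per 1000 barcodes, ranked by the share of simulated doublets among neighbours) were removed. Cells were clustered on 2000 variable genes without the genes described (30 principal components, Leiden resolution 1, leidenalg 0.10.2), and clusters were named from fixed marker lists by a scoring rule set after the clusters were seen. Clusters led by genes of another lineage, with under 3 markers or of low depth were left unnamed or left out (endothelial 119 and 277 cells, stromal 55 and 158, epithelial 29 and 215, myeloid 39 and 43). Club-like cells were not compared because their depth differed, but they stay in the epithelial-like values. Classes needed 20 cells in each library. Genes were counted as tested with a mean of at least 10 CPM, and as called past a 2-fold difference. With 1 library per group no test across samples was run. Intervals are exact (scipy 1.17.1) and cover counting error only. The ratios and intervals were tested on counts simulated with counting error only, which cannot show how they hold when cells, mice or libraries vary. The members and lists were chosen with earlier results of these data known. Beside the 10 genes, those named are the 5 most like Timp3, the 3 most like each other gene, and listed pathway genes that reached 50 CPM in a class and were 2-fold different in a lineage or bind Timp3. Reck was named after its values were seen. B cell-like cells served as the class that should lack the genes, as a measure of free RNA.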

Additional observations from a re-analysis of the deposited data

How the results depend on the processing

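The Timp3 log2 ratio in endothelial-like cells ran from 2.44 to 2.63 over 12 alternatives (cell filters, doublet removal, clustering, naming, scaling, cells weighted equally). It was lowest with each cell named by its own marker score and highest, 2.63, in cells with no UMI of 6 stromal genes. Thinned to 1000 UMIs, 27.1% and 76.3% of endothelial-like cells had a Timp3 UMI. With no minimum level, 18.7% of all genes were past a 2-fold difference in endothelial-like cells. Over 130 values and 1268 alternatives, 1110 were called the same and 143 were called moved. In the other 15 the log2 ratio changed sign. Under a filter of 1000 genes and 10% mitochondrial UMIs these were Timp2 in AT1-like cells (0.00106), Mmp2 in dividing endothelial-like cells (0.11) and Adamts1 in C1q macrophage-like cells (1.27). Without doublet removal they were the last 2 (0.91 and 0.87). With more doublets removed, C1q macrophage-like cells gave −0.47 for Timp3, −0.35 for Mmp12 and 0.11 for Adamts1, and neutrophil-like cells −0.19 for Mmp8. At resolution 2, Mmp12 and Adamts1 in C1q macrophage-like cells gave −0.10 and 0.25. With each cell named by its own marker score, Timp1 in smooth muscle-like cells gave 1.79, Mmp2 in dividing endothelial-like cells 3.09 and Adamts1 in C1q macrophage-like cells 0.32. With cells weighted equally the last gave 0.14. The cause was not tested. Leaving out the richest cell of each library was chosen after seeing the data, as was putting the left-out clusters back, which gave 448 and 2441 CPM of Timp3. With log2(CPM + 10), Cttn stayed the gene most like Timp3 (r = 0.962). No paired analysis was possible because each group has 1 library.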

Other observations

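Clusters that could not be set against room air held further values. A hyperoxia cluster of 50 B cell-like cells had 274 CPM of Timp3, where the B cell-like clusters with cells of both libraries had 19.6 to 53.1 CPM in hyperoxia. An unnamed stromal cluster of 65 hyperoxia cells had 1998 CPM of Mmp2 and 1133 CPM of Timp3. Lymphatic endothelial-like cells in hyperoxia had 42.5 CPM of Timp1. A cluster of 55 hyperoxia neutrophils had 30.5 CPM of Mmp8 and 779 CPM of Mmp9.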
